A study of Homo sapiens with 4 samples.

Results

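Cohesin is the protein ring that holds sister chromatids together until anaphase and folds interphase DNA into loops. Its ring is made of SMC1A, SMC3 and the kleisin RAD21, which closes the ring and is cut by separase at anaphase. A STAG subunit, STAG1 or STAG2, binds the kleisin. PDS5A, PDS5B and WAPL control how long the ring stays on DNA, WAPL being the factor that opens it. The mRNAs of 8 such genes were named for this account, and they were selected on their read counts: a gene was kept if its counts over the 4 pools came to 10 or more. That left 6 of the 19948 gene symbols in the table: SMC1A, RAD21, STAG1, STAG2, PDS5A and WAPL, with between 43 counts for WAPL and 201 for RAD21. SMC3, with 9 counts, and PDS5B, with 6, fell just under the minimum. PDS5A and WAPL reached it only through their heavy polysome counts. The list was also chosen by the position of RAD21, which had been seen far toward the heavy polysomes in these same libraries, so the values toward the heavy end describe that choice and support nothing beyond it.

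The series separates mRNA by how many ribosomes it carries, in a study of how mTOR and LARP1 act on the ribosome loading of TOP mRNAs, which begin with a C and a run of pyrimidines. HEK293T, a human embryonic kidney line that carries the SV40 large T antigen, was given cycloheximide at 100 ug/mL for 10 min, an inhibitor that halts elongating ribosomes on mRNA. No genotype change and no other agent is named in the labels for any pool. Lysate was spun through sucrose from 10% to 50%, and capped polyadenylated RNA was sequenced directly on nanopores from 4 pools: free (no ribosome), monosome (a single ribosome), light polysome and heavy polysome. Each pool is 1 library, so no difference below has a replicate check and no p-value is given.

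Depth was uneven. From free to heavy polysome the libraries held 355509, 1329334, 1499401 and 1564531 counts. Levels are given as CPM, the usual scaling of counts by library size, and 1 count was worth 2.81 CPM in the free library and 0.639 CPM in the heavy polysome library. Symbols of ribosomal proteins and their close relatives took 64.9%, 54.8%, 31.6% and 19.1% of the counts from free to heavy polysome, which lowers the CPM of every other gene toward the free end. A CPM is a share of its library, and fewer molecules of an mRNA in a pool cannot be told apart from more of the other mRNAs there. Of the markers of the line, IGF2BP1 had 170 counts in all, LIN28B 98 and PAX2 6, while PTPRC, CD3E, ALB, COL1A2 and MYH7, markers of other tissues, had none.

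To place cohesin mRNAs against the TOP class that the study is about, the annotated RefSeq starts of SMC1A, STAG1, STAG2, PDS5A and WAPL (assembly GRCh38.p14; the start of RAD21 was not analysed here) were read out from 10 bases before the start to the twentieth base of the transcript, 5′ to 3′ on the gene's strand. The capitals mark the first 5 transcribed bases.
SMC1A, start 1, chrX:53422709-53422738, minus strand: aaatcccgttAGGCCtggacgtattctcgc
SMC1A, start 2, chrX:53422635-53422664, minus strand: gggctacctcAGTTCtcgggcgtacggcgc
STAG1, chr3:136752359-136752388, minus strand: cagcggcgccATTGGcgtgtggaaaatgcc
STAG2, start 1, chrX:123960550-123960579, plus strand: tcgcctccaaGTCGCcgaagagcgaacacc
STAG2, start 2, chrX:123961302-123961331, plus strand: ccccccccccATGGGtggcccaaaatggag
STAG2, start 3, chrX:123962048-123962077, plus strand: tcccacccccACCCGcactgtctttctcaa
PDS5A, chr4:39977892-39977921, minus strand: cgctgctctcGCGTGctctcgcgccgctcg
WAPL, chr10:86521773-86521802, minus strand: gggaagcggaGTGACggagcgagcggctgt

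None of these 8 starts had a C at the first base followed by 4 bases that were each C or T, the pattern searched on the gene's strand at that one position. It was present at 56.5% of the 85 listed starts of ribosomal protein symbols and at 5.91% of the 8951 listed starts of genes with 30 or more counts. The starts are annotated ones, and where the caps of the sequenced molecules lay was not measured.

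Within the cohesin ring, both measured mRNAs were most abundant by share in the heavy polysome library. RAD21 (ENSG00000164754.14, chromosome 8, 116845935 to 116874866, minus strand, with 14 exons in its longest coding transcript) had 1, 8, 4 and 188 counts in the free, monosome, light polysome and heavy polysome libraries. These were 2.81, 6.02, 2.67 and 120 CPM. The exact Poisson interval of the last value, 104 to 139 CPM (all intervals here cover 95% counting error only), lay above the intervals of the other 3 libraries, which overlapped each other and reached at most 15.7 CPM. The heavy polysome library held 91.3% of the sum of the 4 CPM values of RAD21.

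SMC1A (ENSG00000072501.17, chromosome X, 53374149 to 53422728, minus strand), the ring subunit that pairs with SMC3, had 0, 3, 12 and 47 counts from free to heavy polysome. Its CPM values of 2.26, 8.00 and 30.0 from monosome to heavy polysome formed a staircase, in which the monosome and light polysome intervals (0.465 to 6.60 and 4.14 to 14.0 CPM) overlapped and the heavy polysome interval (22.1 to 39.9 CPM) stood clear of both. With no read in the free library, the upper end of the interval there was 10.4 CPM. SMC3, below the minimum, had 1, 1, 0 and 7 counts.

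STAG1 and STAG2, the alternative subunits that bind RAD21, were the members with the largest part of their reads outside the heavy polysomes. STAG1 (ENSG00000118007.12, chromosome 3, 136336233 to 136752403, minus strand) had 1, 24, 19 and 28 counts, or 2.81, 18.1, 12.7 and 17.9 CPM. Its monosome, light polysome and heavy polysome intervals all overlapped, so that no order could be given among those libraries. STAG2 (ENSG00000101972.18, chromosome X, 123960212 to 124422664, plus strand) had 3, 17, 3 and 37 counts, or 8.44, 12.8, 2.00 and 23.6 CPM. The light polysome value of STAG2 was the low one: its interval of 0.413 to 5.85 CPM lay below those of the monosome library (7.45 to 20.5 CPM) and the heavy polysome library (16.7 to 32.6 CPM), and overlapped that of the free library.

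Among the factors that act on the bound ring, WAPL (ENSG00000062650.18, chromosome 10, 86435256 to 86521815, minus strand) had 0, 8, 1 and 34 counts, or 0, 6.02, 0.667 and 21.7 CPM. The light polysome library was again below the libraries on both sides of it, although its interval (0.0169 to 3.72 CPM) overlapped that of the monosome library (2.60 to 11.9 CPM). PDS5A (ENSG00000121892.14, chromosome 4, 39822863 to 39977956, minus strand), a scaffold that recruits both WAPL and the acetyltransferases that stabilise the ring, had 0, 3, 6 and 38 counts, or 0, 2.26, 4.00 and 24.3 CPM. It showed no low point in the light polysomes. Its paralogue PDS5B, below the minimum, had 0, 1, 0 and 5 counts.

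**Figure D1:**
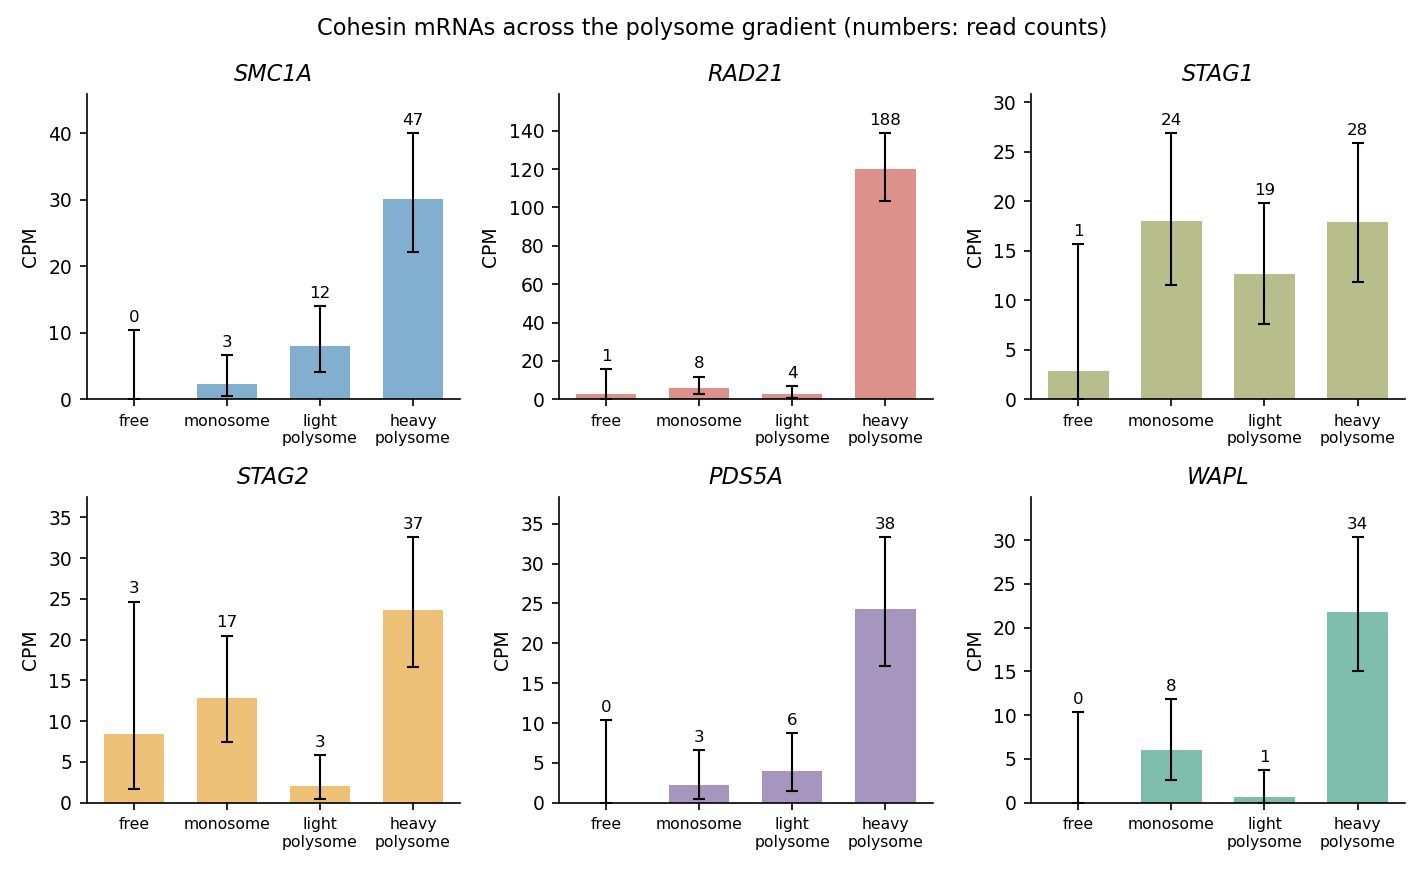
Share of each library (CPM, vertical axis, a separate linear scale per gene) taken by the 6 cohesin mRNAs in the free, monosome, light polysome and heavy polysome libraries, with 1 library each; error bars are 95% exact Poisson intervals and the numbers above them are read counts. RAD21 stands out at 188 counts in the heavy polysome library, STAG1 is level from monosome to heavy polysome, and STAG2 and WAPL have 3 and 1 counts in the light polysome library.

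The heavy polysome library was set against the light polysome library to ask which cohesin mRNAs carried many rather than few ribosomes. Ratios of shares were computed with 0.5 added to each count and are given as log2 values relative to the median of the 7527 genes with 30 or more counts, whose own share in heavy polysomes was 1.51 times that in light polysomes. RAD21 lay at 4.74 (3.52 to 6.79), the seventh highest of those genes. WAPL lay at 3.87 (1.86 to 9.78), STAG2 at 2.77 (1.31 to 5.31), PDS5A at 1.91 (0.76 to 3.54) and SMC1A at 1.27 (0.38 to 2.37). STAG1 was the exception at -0.10 (-0.98 to 0.83), with 28 heavy polysome and 19 light polysome counts. Thus 5 of the 6 lay at least 2-fold above the median gene and none lay 2-fold below it, where 26.8% of all tested genes lay above and 29% below. This is the contrast on which RAD21 was picked. PDS5A and WAPL, with 38 of 47 and 34 of 43 counts in the heavy polysome library, passed the minimum of 10 only through it. Of the 6, only STAG1 reached 30 counts without that library. The count of members is therefore a description and is not read against the shares of all genes, here or in other contrasts with the heavy polysome library. The median of the 6 was 2.34. With every library thinned to the depth of the free library the median was 2.02, and 4 of the 6 lay at least 2-fold above. Summed, the 6 members had 372 counts, or 238 CPM, in the heavy polysome library and 45 counts, or 30.0 CPM, in the light polysome library. Of the 372 counts, 188 came from RAD21.

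Against the monosome library the members split. RAD21 lay at 2.50 (1.57 to 3.81), SMC1A at 1.79 (0.36 to 4.32) and PDS5A at 1.48 (0.03 to 4.03) for heavy polysome against monosome. WAPL lay level with the median gene at 0.05 (-1.03 to 1.43). Both STAG mRNAs lay below it, STAG2 at -0.88 (-1.72 to 0.07) and STAG1 at -1.76 (-2.59 to -0.90). In total 3 of 6 lay at least 2-fold above the median gene and 1 lay 2-fold below, against 24.5% and 29.1% of all tested genes, with a median of 0.76. Without RAD21, the median was 0.05. For the median gene the share in heavy polysomes was 3.34 times that in monosomes, so STAG1, for which this quotient was 0.991, stood low only in relation to other genes.

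The light polysome library was set against the monosome library to follow the step into the polysomes. WAPL lay at -3.66 (-9.63 to -1.26) with 1 light polysome count and 8 monosome counts, the thirtieth lowest of the tested genes. STAG2 lay at -3.48 (-6.07 to -1.87) with 3 light polysome and 17 monosome counts. RAD21 lay at -2.08 (-4.34 to -0.26) with 4 light polysome and 8 monosome counts, and STAG1 at -1.49 (-2.44 to -0.57) with 19 light polysome and 24 monosome counts. PDS5A at -0.26 (-2.38 to 2.47) and SMC1A at 0.68 (-1.05 to 3.31) had intervals that held 0. So 4 of 6 lay at least 2-fold below the median gene and none 2-fold above it, against 20% and 18.5% of all tested genes, with a median of -1.78. RAD21 was picked toward the heavy polysomes, which favours a low light polysome count. WAPL passed the minimum only through its heavy polysome counts. This count of members is therefore a description and not an excess over those shares. Without RAD21 the median was -1.49. With every library thinned to the depth of the free library, the median was -0.72, STAG1 lay at -0.41 and no longer 2-fold away, RAD21 lay at -1.03 and SMC1A lay at 2.14. For RAD21 and WAPL this rests on 12 and 9 reads in the pair of libraries.

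**Figure D2:**
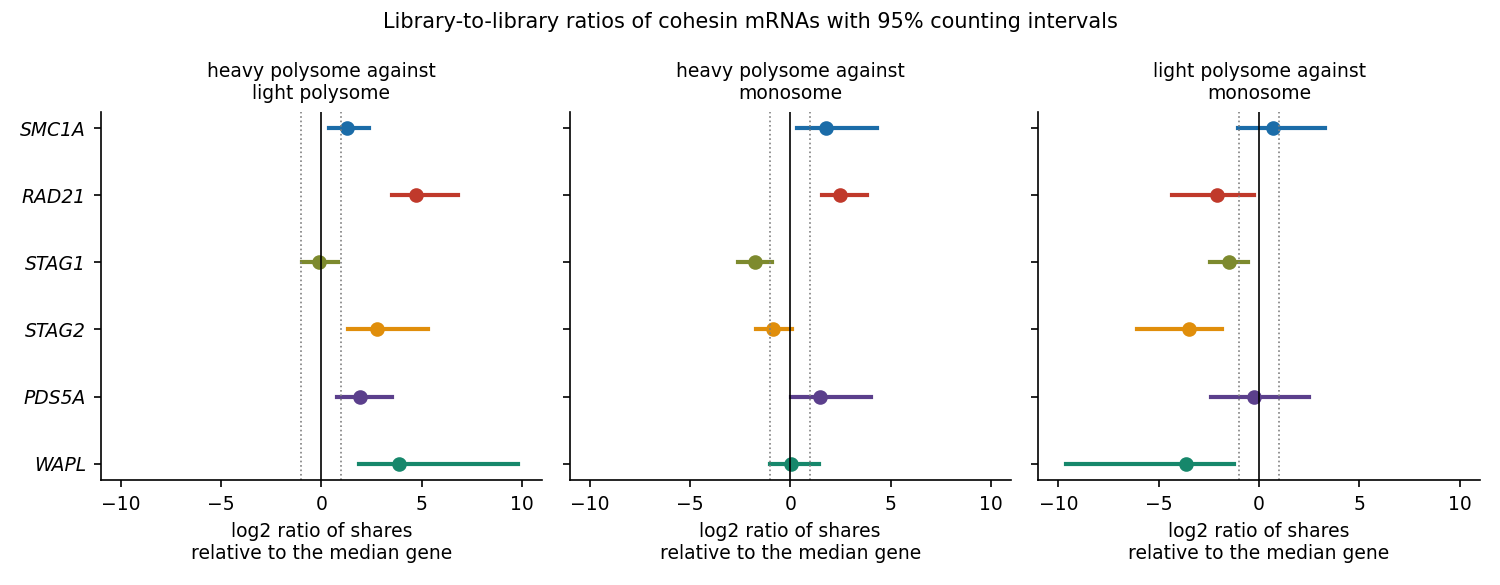
Log2 ratio of shares relative to the median tested gene (horizontal axis) for the 6 cohesin mRNAs in heavy polysome against light polysome, heavy polysome against monosome and light polysome against monosome; points are the ratios, bars are 95% exact counting intervals and dotted lines mark 2-fold. RAD21, SMC1A and PDS5A lie to the right in both heavy polysome panels, and WAPL, STAG2, RAD21 and STAG1 lie to the left in the light polysome against monosome panel.

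RAD21, STAG2 and WAPL thus had both steps: at least 2-fold below the median gene from monosome to light polysome, and at least 2-fold above it from light to heavy polysome. Such a course was found in 3 of the 6 members and in 9.21% of the tested genes. Both steps use the same light polysome library, so a low count there enters each of them. RAD21, STAG2 and WAPL had 4, 3 and 1 counts in it. RAD21 was picked for its place toward the heavy polysomes, and WAPL passed the minimum only through its heavy polysome counts. The 3 of 6 is thus a description and not an excess over the 9.21%. Without the relation to the median gene, 4 of the 6 (these and STAG1) had a lower CPM in the light polysome library than in the monosome and heavy polysome libraries, as did 13.5% of the tested genes. The intervals of STAG1 in those libraries overlapped. That count holds the same selected members and is likewise a description, not an excess over the 13.5%. The heavy polysome library held the highest CPM for 5 of the 6 and for 61.3% of the tested genes, and STAG1, at 17.9 CPM there and 18.1 CPM in the monosome library, was the sixth.

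**Figure D3:**
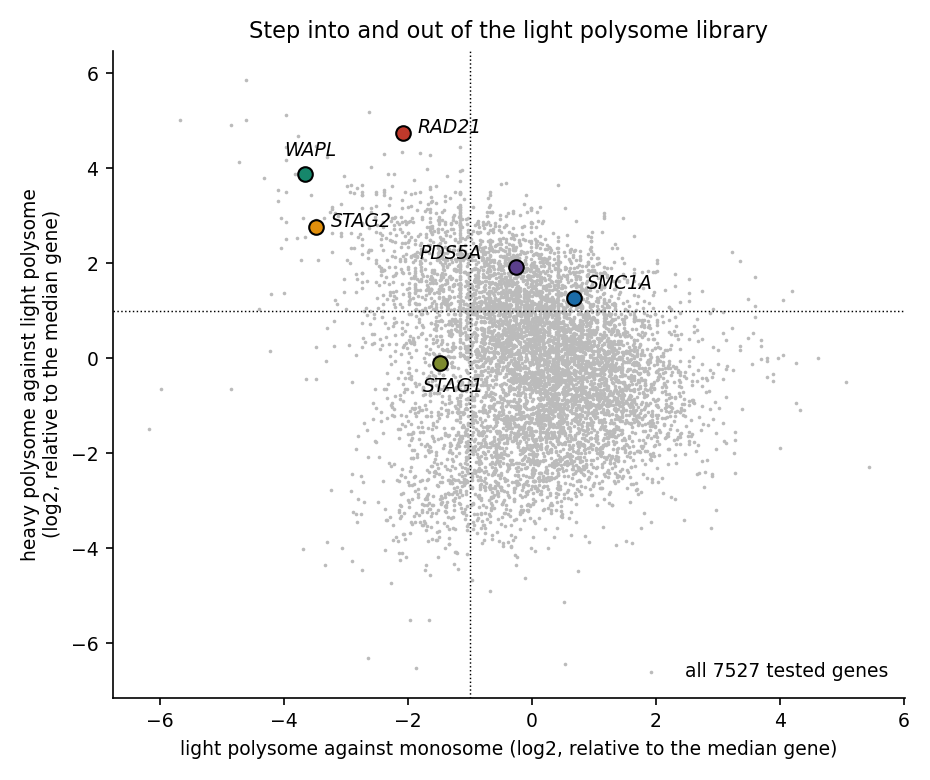
Light polysome against monosome (horizontal axis) and heavy against light polysome (vertical axis), both as log2 ratios of shares relative to the median gene, for all 7527 tested genes in grey and the 6 cohesin mRNAs in colour; dotted lines mark the 2-fold limits. RAD21, STAG2 and WAPL lie in the upper left field, SMC1A and PDS5A above the horizontal line, and STAG1 below it; the axes share the light polysome counts.

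Setting 1 member against another within the same pair of libraries removes the scaling altogether. RAD21 was left out here because its heavy polysome values chose it, and the 10 pairs of the other 5 members were compared in 3 contrasts with exact conditional intervals, not adjusted for their number. The paralogues STAG2 and STAG1 differed beyond counting error between the polysome libraries: the heavy to light polysome ratio of STAG2 was 8.18 times that of STAG1 (2.11 to 47.4). In heavy polysome against monosome the same quotient was 1.85 (0.787 to 4.45), an interval that held equality. In light polysome against monosome SMC1A lay 19.9 times above STAG2 (3.11 to 191). The interval excluded equality in 5 of the 10 pairs for heavy against light polysome, in 5 for heavy polysome against monosome and in 6 for light polysome against monosome. The 10 pairs reuse the same 5 genes, and pairs of other genes were not counted. PDS5A and WAPL, which passed the minimum only through their heavy polysome counts, remain among them. The tested genes themselves spread widely, with quartiles of -1.20 and 1.07 in heavy against light polysome. Whether cohesin mRNAs differ among themselves more than other genes do was therefore not tested.

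The free library held too few of these reads for a firm comparison. The 6 members had 5 counts there together, 3 of them on STAG2. In heavy polysome against free, RAD21 lay at 1.79 (-0.12 to 7.68), STAG1 at -0.94 (-2.97 to 4.98) and STAG2 at -1.76 (-3.22 to 0.78), intervals that all held 0. SMC1A, PDS5A and WAPL had no count in the free library. Against a floor of 3 counts there, the heavy polysome shares were 3.56-fold higher for SMC1A, 2.88-fold higher for PDS5A and 2.58-fold higher for WAPL. The exact intervals of these ratios, which also carry the error of the heavy polysome counts, begin at 2.78 for SMC1A, 2.23 for PDS5A and 1.98 for WAPL. The median gene had 8.26-fold, but with 0.5 added to each count, so the floor values cannot be set against it. With the floor used for all tested genes, SMC1A lay at -0.35, PDS5A at -0.66 and WAPL at -0.82 relative to the median gene. With 0.5 added they lay at 1.39, 1.08 and 0.93. By the ratios with 0.5 added, 3 of 6 members lay at least 2-fold above the median gene and 1 below, against 23.5% and 30% of the tested genes, but 2 of those 3 had no free count and the median of 1.00 changed sign with the treatment of such genes. For light polysome against free, 3 of 6 lay at least 2-fold below the median gene, against 25% of the tested genes, STAG2 being lowest at -4.35 (-7.25 to -1.45) with 3 counts in each library, and WAPL was among them without a free count. RAD21 was among them as well, so this count too is only a description. For monosome against free no member was 2-fold from the median gene in either direction, where 21.6% of the tested genes lay above and 20% below.

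Coding length differed among the members. RAD21 has 1893 coding nucleotides in GENCODE release 29, and the others between 3570 (WAPL) and 4011 (PDS5A). Across the 7464 tested genes with a coding length, the heavy to light ratio went with length with a Spearman rho of 0.319, a description over genes that share the same libraries. The relation was not a straight one. The 2815 genes under 1000 coding nucleotides had a median log2 ratio of -0.84, and beyond that length the class medians fell as length rose. They were 0.38 from 2000 to 3000 nucleotides and -0.29 from 4500. The 3054 genes with 1000 to 2000 coding nucleotides, RAD21 among them, had a median log2 ratio of 0.58, and 39.3% of them lay at least 2-fold above the median of all genes. The 430 genes from 3000 to 4500 nucleotides had a median of 0.05, and 19.1% of them lay that far above. Of the 5 cohesin mRNAs in that longer class, SMC1A, STAG2, PDS5A and WAPL lay at least 2-fold above and STAG1 did not. PDS5A and WAPL passed the minimum only through their heavy polysome counts, so this is a description and is not read against the 19.1%. The length classes were chosen after the values were seen.

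**Figure D4:**
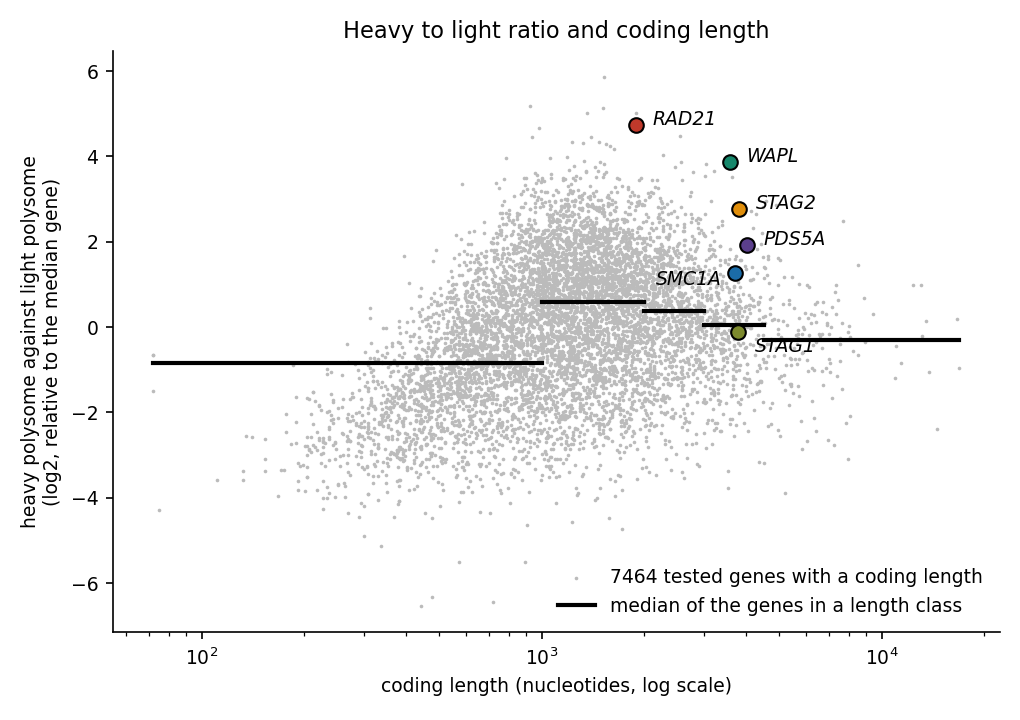
Heavy against light polysome (vertical axis, log2 ratio of shares relative to the median gene) against coding length (horizontal axis, nucleotides, log scale) for 7464 tested genes in grey and the 6 cohesin mRNAs in colour; black lines are the medians of 5 length classes. The class medians are 0.58 from 1000 to 2000 nucleotides and 0.05 from 3000 to 4500, and the 5 longer cohesin mRNAs range from -0.10 for STAG1 to 3.87 for WAPL.

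Other genes lie on top of some members, and the sources used here do not say whether the authors counted by strand, so reads from the overlapping ends cannot be told apart. UTP23, on the opposite strand at the RAD21 locus, had 1, 10, 12 and 27 counts from free to heavy polysome and a heavy to light value of 0.49 (-0.51 to 1.63), far below that of RAD21. PCCB, opposite STAG1, had 2, 8, 11 and 71 counts and lay at 1.98 (1.11 to 3.10), above STAG1. RIBC1, opposite SMC1A, had 8 counts in all. The coding genes that overlap STAG2 (SH2D1A, TEX13D and TENM1) had none.

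The genes that load, acetylate, protect and cleave cohesin, listed together with CTCF, lay on both sides of the median gene. Of 12 listed, 8 had 30 or more counts, and their median in heavy against light polysome was -0.26. Only 1 of them, CTCF, lay at least 2-fold above the median gene there, and 2 lay 2-fold below. These shares are close to or under the 26.8% above and 29% below of all tested genes. CTCF, the DNA-binding protein at which loop-forming cohesin stalls, had 81 counts in the heavy polysome library and 14 in the light polysome library and lay at 1.84 (1.05 to 2.81). CDCA5, or sororin, which protects acetylated cohesin from WAPL, had 199 heavy polysome and 401 light polysome counts and lay at -1.66 (-1.92 to -1.41). PTTG1, or securin, which holds separase inactive, had 444 heavy polysome and 579 light polysome counts and lay at -1.03 (-1.22 to -0.85). CDCA5 was high in the step that was low for WAPL, with a light polysome against monosome value of 2.38 (1.90 to 2.95) from 401 light polysome and 34 monosome counts. The median of the 8 in that step was 0.44.

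MAU2, a subunit of the cohesin loader, lay at -0.82 (-1.68 to 0.03) in heavy against light polysome, and its partner NIPBL had 3 counts in all. Separase itself (ESPL1) lay at 0.55 (-0.66 to 2.00), the deacetylase HDAC8 at -0.22 (-1.42 to 1.06), shugoshin SGO1 at -0.29 (-1.26 to 0.72) and the helicase DDX11 at 0.02 (-0.57 to 0.63). The acetyltransferases ESCO1 and ESCO2, with 9 and 18 counts, and SGO2, with 1, were not among the tested genes.

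Condensin and SMC5/6 are related complexes built on other SMC proteins. Among 8 condensin genes, whose products compact mitotic chromosomes, 5 were tested and had a median of 0.43 in heavy against light polysome, with 1 at least 2-fold above the median gene (NCAPG2, at 1.54, 0.70 to 2.57) and none 2-fold below. Among 6 genes of the SMC5/6 repair complex 4 were tested, with a median of 0.50 and none 2-fold away, ranging from NSMCE1 at -0.85 (-1.18 to -0.53) to NSMCE4A at 0.87 (0.35 to 1.44). Of all tested genes 26.8% lay at least 2-fold above and 29% below. Lists of 5 and 4 genes are too short to be read against those shares, and so is that of the 6 cohesin mRNAs. The meiotic cohesin genes SMC1B, RAD21L1 and REC8 had no count, and STAG3 had 1. In light polysome against monosome the condensin median was 0.43 and the SMC5/6 median 0.11, where the 6 cohesin mRNAs had -1.78. The cohesin value includes RAD21, picked toward the heavy polysomes, and was -1.49 without it. WAPL, STAG2 and RAD21 had 1, 3 and 4 counts in the light polysome library. With the libraries thinned, the cohesin median was -0.72. Of the 5 tested condensin genes, 3 lay above the median gene in this step and 2 below. NCAPD3 was lowest at -0.94 (-1.77 to -0.09). SMC4, NCAPG and SMC5 had too few counts to be tested. Their values were -2.30 (-5.87 to 0.13), -2.05 (-4.79 to 0.07) and 0.72 (-2.00 to 6.73), with intervals that held 0. No test of the differences between the medians was possible with 1 library per pool.

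Among 4342 other genes with 100 or more counts, the profiles most like that of RAD21 over the 4 libraries, by Euclidean distance between the shares of summed CPM, were those of SLC39A14, SSB, HNRNPA2B1, DLD and AASDHPPT. Their distances ran from 0.0253 to 0.0305, and their heavy polysome library held between 89.1% and 93.3% of the sum of their CPM values, against 91.3% for RAD21. The summed cohesin profile, with 4.27%, 14.4%, 9.12% and 72.2% from free to heavy polysome, lay nearest to NECAP1, ATP5F1B, AP3M1, CAPZA1 and PAK2, at distances of 0.0103 to 0.0215. RAD21, picked for its place toward the heavy polysomes, supplied 188 of the 372 heavy polysome counts in that sum. With 4 libraries such a likeness describes the profile only.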

How the data were processed

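Per the labels' protocols, capped polyadenylated RNA from gradient pools was read by direct RNA sequencing, which involves no amplification. The authors deposited 1 table of unscaled whole-number counts, with a row for each gene symbol. The submitters' processing notes name hg38, minimap2 2.15, featureCounts and Subread 1.6.2. The annotation release, strand use and handling of reads with several alignments are not given in these sources. The number of unused columns was 0.

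Pools were compared pairwise, in 6 comparisons. Log2 ratios of shares (0.5 added to each count) were taken relative to the median of genes with 30 or more counts, with exact conditional binomial intervals at 95%. A gene counted as higher or lower from a 2-fold difference. Since every pool has 1 library and the model no residual degrees of freedom, edgeR's quasi-likelihood test could not be fitted. The calculation was checked on simulated counts. GENCODE release 29 (same build) supplied coordinates, and coding lengths without the stop codon for 99.2% of tested genes. Genes named are the members, the genes of the listed complexes, and the 5 nearest profiles. Overlapping neighbours were named after their values were seen. Members and lists were chosen with earlier results of these data known. Alternatives were other minimum counts (10, 100, none), pseudocounts, thinning, edgeR 4.0.16 (TMM) and DESeq2 1.42.0 scaling, and leaving out RAD21. Python 3.11.15, scipy 1.17.1 and R 4.3.3 were used.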

Additional observations from a re-analysis of the deposited data

How the results depend on the processing

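No paired analysis was possible because each pool has 1 library. For the medians and 2-fold counts of the cohesin mRNAs, 102 of 110 recomputed values were counted as unchanged. Another 5 lay outside the counting interval or beyond 1.5 times the count, and 3 changed sign from a 2-fold value. For single members 280 of 285 were unchanged, 3 lay outside the interval and 2 changed sign from a 2-fold value. The interval of a median is the median of the members' limits. In the comparisons with the free library it has no upper end, so lying within it says little there. In heavy polysome against free the median of 1.00 became -0.034 with no pseudocount (3 members left), -0.51 with genes without a count at a floor of 3 counts and -0.0050 with all 8 named genes; at that floor SMC1A lay at -0.35 and PDS5A at -0.66. The last 2 settings were chosen after seeing the data. With a minimum of 100 counts only RAD21 remained, so the heavy to light median became 4.93, the counts above were 1 in both comparisons with the heavy polysome library, and the count below in heavy polysome against monosome was 0. Thinning to 355509 counts per library gave 2 members below in heavy polysome against monosome, where STAG2 lay at -2.10 and RAD21 at 4.88. In heavy against light polysome it gave 4 members above instead of 5. SMC1A lay there at 0.90, STAG2 at 1.55, PDS5A at 2.48 and RAD21 at 6.22. Thinning also moved the light polysome against monosome median to -0.72 and STAG1 there to -0.41. Without RAD21 the heavy to light median was 1.91. TMM scaling raised the value of every gene by 0.06 in heavy against light polysome, 0.22 in heavy polysome against monosome and 0.48 in heavy polysome against free, where the split of tested genes was 2719 above and 1647 below, against 1766 and 2258 relative to the median gene. In monosome against free it was 2002 and 1187, against 1625 and 1504; DESeq2's size factors gave 2432 and 1800 in heavy polysome against free. Depth limits the light polysome values of WAPL, STAG2 and RAD21, which rest on 1 to 4 reads, and every value of the free library.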

Other observations

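Coverage of the structural SMC genes was thin. SMC1A had 62 counts over the 4 libraries, whereas SMC3 had 9, SMC2 8, SMC4 14, SMC5 15 and SMC6 6, and the loader NIPBL had 3. None of these except SMC1A reached the 30 counts needed to be compared. In the heavy polysome library SMC3 had 7 counts, SMC2 4, SMC4 7, SMC5 8 and SMC6 2. The values are given as depth and not as levels of one gene against another, and their cause was not tested.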
